A study of Mus musculus with 4 samples.

Results

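The CDK inhibitors and p53 axis genes were 10 genes taken by symbol and not by their values: the Cip/Kip inhibitors Cdkn1a, Cdkn1b and Cdkn1c, the INK4 inhibitors Cdkn2a, Cdkn2b, Cdkn2c and Cdkn2d, the tumour suppressor gene Trp53, and its feedback targets Mdm2 and Ccng1. All 10 were found among the 43280 genes of the table. A normalized count (reads per gene divided by 1 size factor per library) of at least 10 in at least 2 libraries was asked of a gene before testing, and 9 of the 10 reached it. The exception was Cdkn2a, with 14 reads over all libraries.

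Progress through the cell cycle is driven by cyclin-dependent kinases (CDKs), which phosphorylate the retinoblastoma protein and free E2F transcription factors. The INK4 proteins bind the kinases that pair with D-type cyclins, while the Cip/Kip proteins act on a wider set of cyclin and CDK complexes. The p53 protein, stabilised after DNA damage and other stress, raises transcription of Cdkn1a and of Mdm2, whose product marks p53 for degradation, and of the cyclin gene Ccng1. High Cdkn1a, Cdkn2a and Cdkn2b are commonly read as signs of senescence, a lasting arrest. Most cells of adult retina, however, are neurons that have left the cycle. Inhibitors such as Cdkn1b are also on in many cells that have stopped dividing, and bulk RNA does not show in which cells.

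Poly(A) RNA was sequenced from dissected retina of wildtype mice, strain C6/BL6J in the labels, 2 libraries per group. Mice of the STZ group were given streptozotocin, which kills pancreatic beta cells, at a dose of 50 mg/kg on each of 5 days, starting when 6 weeks old, and glucose above 25 mM was checked 10 days later. Control mice received citrate buffer, and all retinas were collected at 18 weeks. Library names give the group and then 2L or 4R, as in the column headers. Whether the libraries of a group stem from different animals is not stated, so the p-values rest on a spread that may be technical. Reads assigned to genes ranged from 29352330 to 39299653 per library. None of the 8 markers of rod photoreceptors was at 0 in any library.

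The library STZ 2L stood apart. Of 17 lens markers, 17 were highest there, and together they summed to 1113300 normalized counts against 2083 in STZ 4R and 1713 (2L) and 338 (4R) in the controls, with 2 of the markers at 0 in at least 1 library. The 12 markers of cornea and conjunctiva summed to 12392 (2L) and 12250.4 (4R) in STZ, against 2408 (2L) and 1422 (4R) in the controls, with none at 0. Of these, 11 lay higher in both STZ libraries than in both controls, as did 14.3% of all tested genes. The part of these tissues' RNA in the results was not tested.

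None of the genes differed between STZ and control past the threshold. Of the 9 tested, 0 passed at an adjusted p of 0.05, whether higher or lower (limma, Benjamini-Hochberg over 18127 genes, adjusted p = 0.999 for each), where the background was 0% of all tested genes higher and 0% lower. Unadjusted, 0 of the 9 had a p under 0.05 in limma, against 2.31% of all tested genes higher and 0.447% lower. On whole reads recovered from the values, edgeR's quasi-likelihood test and DESeq2 also gave 0 of the genes, adjusted or not. Their backgrounds were 0% and 0.277% higher at the adjusted threshold, 2.88% and 2.81% higher at an unadjusted p under 0.05, and 0.392% and 0.293% lower. Cdkn1a, which encodes p21, was higher in each STZ library than in either control, 1.57-fold on the log2(value + 1) scale. Cdkn1c, Cdkn2b and Ccng1 were high in STZ 2L and close to the controls in STZ 4R. Cdkn1b, Cdkn2c, Cdkn2d, Trp53 and Mdm2 overlapped between the groups, with folds between 0.828 and 1.09. These 5 genes had no library standing apart from the rest by 1.5 times.

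**Figure D1:**
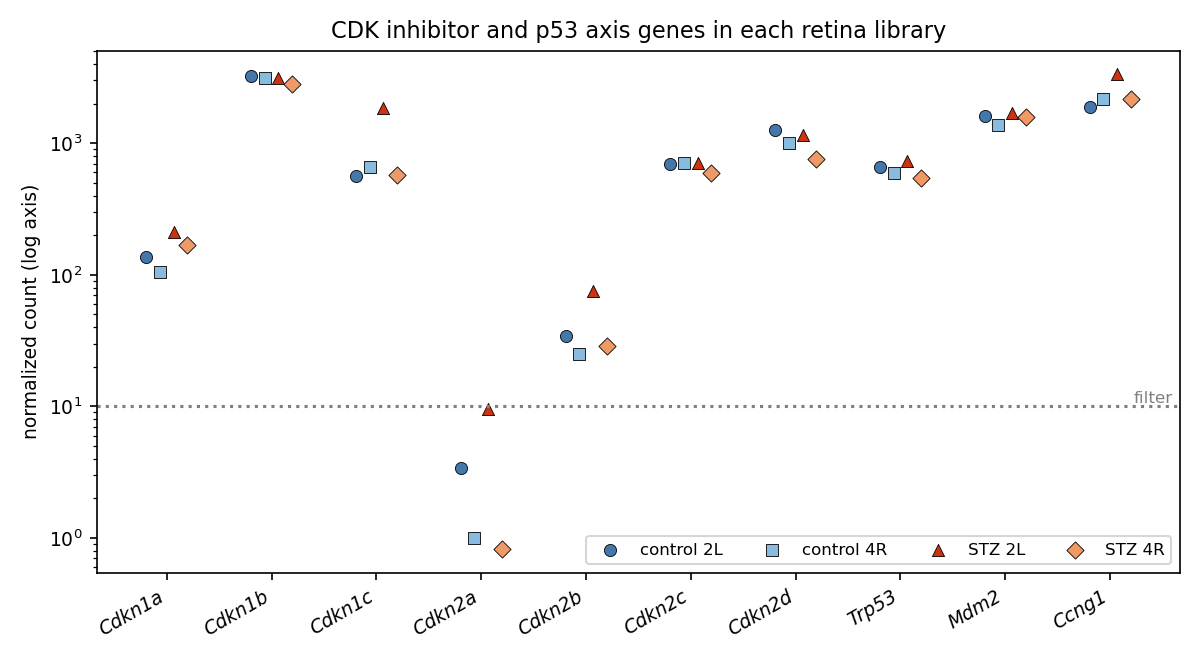
Normalized counts (log axis) of the 10 genes in each of the 4 retina libraries, 1 point per library; the dotted line is the filter at 10. The point for STZ 2L stands above the other 3 for Cdkn1c, at 1865.5 against 561 to 662, and for Cdkn2b, at 74.9 against 25.1 to 34.1, and Cdkn2a lies under the line in every library.

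Among the Cip/Kip genes, Cdkn1a (chromosome 17, 29090976 to 29100727, mm10) makes p21, the inhibitor through which p53 arrests cells. It read 138 (2L) and 105 (4R) normalized counts in the controls, against 213 (2L) and 167 (4R) in STZ. Both STZ libraries were above both controls, and the gap between the lowest STZ and the highest control library was 29.4. Both STZ libraries lie above both controls for 14.3% of all tested genes and for 2 of these 9, the other being Ccng1. The means were 121 ± 23.3 in control and 190.1 ± 32.6 in STZ (SD, n = 2). The log2 fold change was 0.65 ± 0.31 (SE), with a 95% interval from -0.05 to 1.35 (limma, adjusted p = 0.999). It was 0.47 without STZ 2L, 0.82 without STZ 4R, 0.85 without control 2L and 0.45 without control 4R, above 0 each time and past the threshold in none. Of the 12 surface epithelium markers, 11 also had both STZ libraries above both controls. The part of such RNA in the Cdkn1a values was not tested.

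The sequences before the start sites of Cdkn1a and Ccng1 are shown. The p53 protein acts on both genes, and both had their STZ libraries above their controls. For Ccng1 the gap was only 1.96 normalized counts, and 14.3% of all tested genes have this order. The sequences are 250 bases each from RefSeq's GRCm38.p6 windows, on the gene's strand. Matches to the p53 response element consensus (its repeat unit, which reads alike on both strands) are in capitals. RefSeq lists an upstream and a downstream start of Cdkn1a, 2790 bases apart.
Cdkn1a upstream start, chr17:29090729-29090978, plus strand: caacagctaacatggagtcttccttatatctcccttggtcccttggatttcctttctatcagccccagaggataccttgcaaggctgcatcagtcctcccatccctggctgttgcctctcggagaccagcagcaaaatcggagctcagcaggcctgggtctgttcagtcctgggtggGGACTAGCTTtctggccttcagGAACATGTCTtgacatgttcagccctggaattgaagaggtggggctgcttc
Cdkn1a downstream start, chr17:29093519-29093768, plus strand: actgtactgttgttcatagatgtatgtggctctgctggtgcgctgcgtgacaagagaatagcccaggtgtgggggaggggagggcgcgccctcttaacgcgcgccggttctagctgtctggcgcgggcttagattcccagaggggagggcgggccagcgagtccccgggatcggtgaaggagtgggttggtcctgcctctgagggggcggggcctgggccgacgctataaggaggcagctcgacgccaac
Ccng1, chr11:40755287-40755536, minus strand: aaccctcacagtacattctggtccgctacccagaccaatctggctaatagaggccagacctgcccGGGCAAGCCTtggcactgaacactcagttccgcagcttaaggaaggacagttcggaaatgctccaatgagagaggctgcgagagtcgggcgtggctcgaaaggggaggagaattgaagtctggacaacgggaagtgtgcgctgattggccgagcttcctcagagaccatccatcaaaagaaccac
The window of the upstream Cdkn1a start held 2 repeat units, GGACTAGCTT from 73 to 64 bases before the start and GAACATGTCT from 51 to 42. They are close enough to count as a full element under the search used (spacer of at most 13 bases), which 0.0639% of all 32851 windows hold. That search asked for a match at every base. The bases tgacatgttc, directly after GAACATGTCT, depart from the consensus at their first base only. They were thus left in lower case, and their pairing with GAACATGTCT was not counted. In the Ccng1 window 1 unit, GGGCAAGCCT, lay 185 to 176 bases before the start. Windows were found for 9 of the 10 genes (12 windows), and 5 of the 12 held at least 1 unit, against 7.13% of all windows. These 5 belonged to Cdkn1a, Ccng1, Cdkn2d, Mdm2 and Trp53. The downstream Cdkn1a window held no unit but 2 copies of GGGCGG, the core bound by Sp1 family factors. That core or its complement CCGCCC is in 32.7% of all windows, and it overlapped a p53 repeat unit in the Cdkn2d window but in neither Cdkn1a window nor that of Ccng1. A match describes letters and is no evidence of binding in these retinas.

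Cdkn1b (chromosome 6, 134920401 to 134925513) makes p27, an inhibitor that keeps many cells that have stopped dividing out of the cycle. It read 3250.2 (2L) and 3119 (4R) normalized counts in the controls, against 3134 (2L) and 2823 (4R) in STZ. STZ 2L lay between the controls, and STZ 4R was lowest. The log2 fold change was -0.10 ± 0.15 (SE), with a 95% interval from -0.45 to 0.25 (limma, adjusted p = 0.999), so the interval allowed folds from 0.733 to 1.19.

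Cdkn1c (chromosome 7, 143458339 to 143461050) makes p57, an inhibitor expressed from the maternal copy of the gene and used in many tissues as they stop dividing. It read 561 (2L) and 662 (4R) normalized counts in the controls, against 1865.5 (2L) and 576 (4R) in STZ. Only STZ 2L was high, 3.11 times the mean of the other 3 libraries, and STZ 4R lay between the controls. The means were 611 ± 71.6 in control and 1221 ± 912 in STZ (SD, n = 2), and the log2 fold change was 0.77 ± 0.46 (SE), with a 95% interval from -0.29 to 1.82. Without STZ 2L it was -0.082 (limma, adjusted p = 1.00), and without STZ 4R it was 1.61 and passed (limma, adjusted p = 1.1e-08). Lens markers summed to 1113300 normalized counts in STZ 2L and to at most 2083 in any other library, and what lens RNA added to Cdkn1c was not tested. An antisense gene, Gm44732, overlaps exons of Cdkn1c, and a gene model on the other strand, AC167363.2, overlaps those of Cdkn1a. The strand setting of the counting is not given in the sources used here, so reads of these pairs cannot be told apart.

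Of the INK4 genes, Cdkn2a (chromosome 4, 89274471 to 89294653), which encodes both p16INK4a and p19ARF, had too few reads to compare. It had 3 (2L) and 1 (4R) reads in the controls, against 9 (2L) and 1 (4R) in STZ. The exact 95% Poisson intervals, for counting error only, were 0.619 to 8.77 reads in control 2L, 0.0253 to 5.57 in both control 4R and STZ 4R, and 4.12 to 17.1 in STZ 2L. As normalized counts, the 9 reads of STZ 2L were 9.50, with an interval from 4.34 to 18.0, and the 3 of control 2L were 3.41, with an interval from 0.704 to 9.97. These intervals overlap, which is not a test of a difference. In DESeq2 on recovered reads the unadjusted p of Cdkn2a was 0.558. STZ 4R, with 1 read, did not share the higher count of STZ 2L. Counts were given per gene, so p16INK4a and p19ARF, which share exons, were not separated. The library with the most Cdkn2a reads was again STZ 2L.

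Its neighbour Cdkn2b (chromosome 4, 89306299 to 89311039) makes p15, an inhibitor known to respond to transforming growth factor beta. It read 34.1 (2L) and 25.1 (4R) normalized counts in the controls, against 74.9 (2L) and 28.9 (4R) in STZ, from 30, 25, 71 and 35 reads. Only STZ 2L was high, at 2.55 times the mean of the other 3. The log2 fold change was 0.65 ± 0.56 (SE), with a 95% interval from -0.64 to 1.95 (limma, adjusted p = 0.999), and it was -0.017 without STZ 2L and 1.32 without STZ 4R.

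Cdkn2c (chromosome 4, 109660876 to 109667189) makes p18, an inhibitor of the CDK4 and CDK6 kinases. It read 691 (2L) and 702 (4R) normalized counts in the controls, against 710.1 (2L) and 591 (4R) in STZ. The controls and STZ 2L lay close together, and STZ 4R was lower. Its log2 fold change was -0.10 ± 0.19 (SE), with a 95% interval from -0.55 to 0.34 (limma, adjusted p = 0.999). Cdkn2d (chromosome 9, 21288410 to 21291407) makes p19INK4d, known in mice to help keep neurons from dividing again. It read 1261 (2L) and 1009 (4R) in the controls, against 1151 (2L) and 757 (4R) in STZ. Again STZ 2L lay between the controls and STZ 4R was lowest. The log2 fold change of Cdkn2d was -0.27 ± 0.24 (SE), with a 95% interval from -0.82 to 0.27, and it was -0.58 without STZ 2L and 0.029 without STZ 4R (limma, adjusted p = 0.857 and 0.998).

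**Figure D2:**
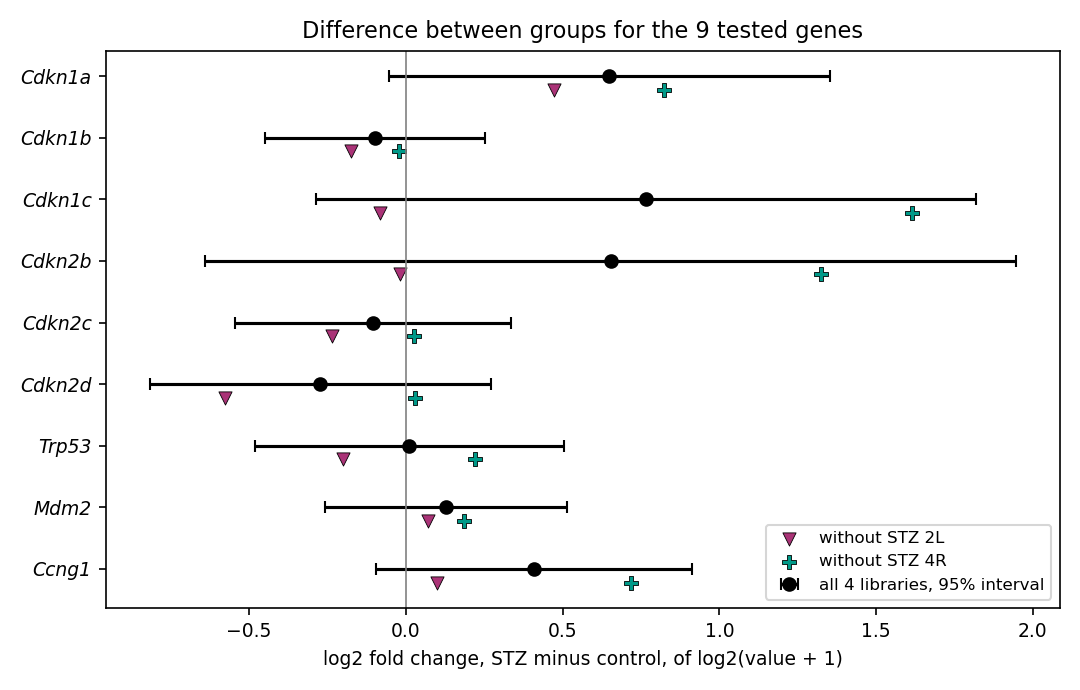
Log2 fold change of STZ minus control on the log2(value + 1) scale for the 9 tested genes, with limma's 95% interval over all 4 libraries (black), and the fold change alone, with no interval, without STZ 2L or without STZ 4R. Each 4-library interval includes 0; leaving out STZ 2L takes Cdkn1c from 0.77 to -0.082 and Cdkn2b from 0.65 to -0.017, while Cdkn1a stays at 0.47.

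Trp53 itself (chromosome 11, 69580359 to 69591873) was close between the groups. It read 658 (2L) and 593 (4R) normalized counts in the controls, against 729 (2L) and 544 (4R) in STZ, so the STZ libraries bracketed the controls. The log2 fold change was 0.01 ± 0.21 (SE), with a 95% interval from -0.48 to 0.50, and its sign turned to -0.019 with quantile normalization. The RNA level says nothing of p53 protein, which is set mainly by its degradation.

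Mdm2 (chromosome 10, 117688875 to 117710758), whose product degrades p53 and whose transcription p53 raises, read 1622 (2L) and 1384 (4R) in the controls, against 1703 (2L) and 1575 (4R) in STZ. The groups overlapped, since STZ 4R lay between the controls. Its log2 fold change was 0.13 ± 0.17 (SE), with a 95% interval from -0.26 to 0.51 (limma, adjusted p = 0.999).

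Ccng1 (chromosome 11, 40748552 to 40755311) makes cyclin G1, a p53 target that works in the Mdm2 feedback. It read 1888 (2L) and 2166 (4R) in the controls, against 3326 (2L) and 2168 (4R) in STZ. The STZ libraries were above the controls, but STZ 4R by only 1.96 normalized counts, and STZ 2L alone was high, at 1.60 times the mean of the other 3. The log2 fold change was 0.41 ± 0.22 (SE), with a 95% interval from -0.09 to 0.91. It was 0.10 without STZ 2L and 0.72 without STZ 4R, where it passed (limma, adjusted p = 0.0311).

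The 3 tested genes with STZ 2L more than 1.5 times above each other library were Cdkn1c, Cdkn2b and Ccng1. This shape held for 6.57% of all tested genes. STZ 2L was above both controls for 7 of the 9, against 33.2% of all tested genes, and STZ 4R was below both controls for 4, against 32.3%. The median log2 fold change of the 9 was 0.13, beside -0.01 for all tested genes, and it was -0.082 without STZ 2L. Without STZ 4R, where STZ 2L stands alone for its group and is assumed to vary like the controls, Cdkn1c and Ccng1 passed higher, as did 3.09% of all genes tested in that fit. Without STZ 2L, 0 of the 9 passed, beside 0.35% of all genes higher and 0.0733% lower, and the same count of 0 came without control 2L and without control 4R, beside 0.0506% and 0.045% higher. In bulk retina, a change in the number of cells of a type and a change in RNA per cell cannot be told apart.

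Levels between genes were compared per kilobase of exon (GENCODE M21 gene models, mm10), as the mean over the 4 libraries with the range. Ccng1 was highest at 679.6 normalized counts per kilobase (538 to 947), followed by Cdkn1b at 677 (620.1 to 714), Cdkn2d at 664 (481 to 801) and Cdkn1c at 449 (275 to 915). These 4 ranges overlapped from neighbour to neighbour, so their order is not separated. Then came Mdm2 at 309 (272 to 335), whose range overlapped that of Cdkn1c, Cdkn2c at 251 (220.1 to 264) and Trp53 at 156 (135 to 180.2), each below the one before in all libraries. Cdkn1a stood at 43.8 (29.4 to 60.0) and Cdkn2b at 29.3 (18.1 to 53.9), which overlapped, and Cdkn2a at 3.14 (0.706 to 8.10). Among tested genes with a gene model, Ccng1, Cdkn1b and Cdkn2d stood at percentiles 86.6, 86.6 and 86.3 of the level per kilobase, while Cdkn1a stood at percentile 28.2 and Cdkn2b at 22.3. The p21 and p15 transcripts were thus scarce beside those of p27, p19INK4d and p57 in both groups.

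**Figure D3:**
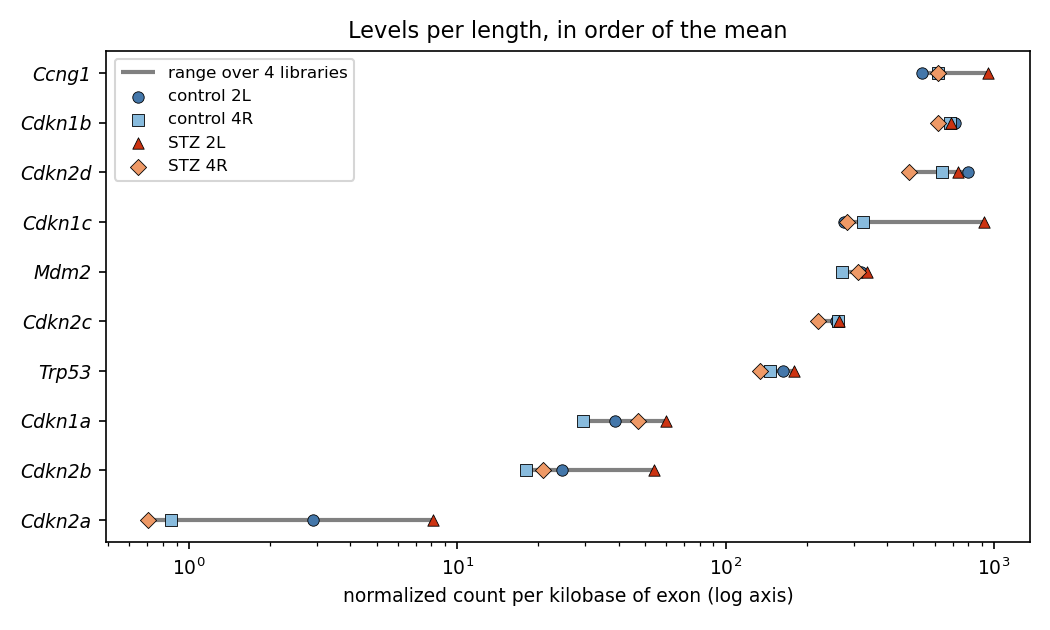
Normalized count per kilobase of exon (log axis) of each gene in each library, ordered by the mean, with a grey line for the range over the 4 libraries. Ccng1, Cdkn1b and Cdkn2d sit at 664 to 679.6 on average, and Cdkn1a, Cdkn2b and Cdkn2a at 43.8 and below.

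The wider pathway was read from 8 lists with 123 genes, all in the table (Cop1 under its older symbol Rfwd2), of which 109 passed the filter. In limma 0 of the 109 passed an adjusted p of 0.05, and 5 were higher and 0 lower at an unadjusted p under 0.05, where all tested genes gave 2.31% and 0.447%. The 5 were Perp, Trp63, Ccnd2, Foxm1 and Klf4. Over the 109 the median log2 fold change was 0.05, beside -0.01 for all tested genes. STZ 2L exceeded each other library by 1.5 times for 16 of the 109, or 14.7%, against 6.57% of all tested genes. Both STZ libraries lay above both controls for 27 of the 109 (24.8%) and below both for 8 (7.34%). Over all tested genes these shares were 14.3% and 14.3%.

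Among 24 tested targets of p53 other than the genes above, 12 had a log2 fold change above 0 and the median was -0.00. Perp, a desmosome protein that p53 can induce and that surface epithelia make in quantity, had 83.0 (2L) and 93.5 (4R) normalized counts in the controls, against 892 (2L) and 345 (4R) in STZ. Its log2 fold change was 2.64 ± 0.42 (SE), short of the threshold (limma, adjusted p = 0.279), and it passed without STZ 2L at 1.96 (limma, adjusted p = 0.000508). Perp also belongs to the cornea and conjunctiva markers. Both STZ libraries were above both controls for 11 of these 12, against 14.3% of all tested genes. Gadd45a, a growth arrest gene of the DNA damage response, had 523 and 534 in the controls and 707 and 609 in STZ 2L and 4R, at 0.31 ± 0.19. Gtse1, a mitotic gene whose product restrains p53, stood at 0.79 ± 0.52, and Sesn2, a stress gene that restrains mTORC1, at -0.25 ± 0.17. Neither these 3 genes nor any other of the 24 passed, and the median of these targets was -0.09 without STZ 2L and 0.09 without STZ 4R.

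Of 15 tested regulators and relatives of p53, 13 had a log2 fold change above 0, at a median of 0.19, beside 48.9% of all tested genes above 0, and 0 passed. Trp63, the p53 relative that specifies stratified epithelium, read 18.2 (2L) and 12.1 (4R) in the controls, against 66.5 (2L) and 41.4 (4R) in STZ (1.75 ± 0.53; limma, adjusted p = 0.999). Atm, the kinase that signals DNA breaks to p53, read 423 and 444 in the controls and 543 and 641 in STZ 2L and 4R, at 0.44 ± 0.20, with both STZ libraries above both controls. Chek2, a kinase that Atm activates, was high in STZ 2L alone, at 92.9 normalized counts against 12.5 to 27.2 in the others. Hipk2, a kinase that phosphorylates p53, stood at 0.35 ± 0.28, with its lowest value, 1599, in control 4R. For these regulators the median was 0.26 without STZ 2L and 0.01 without STZ 4R.

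CDKs and cyclins had 15 tested genes, 9 of them above 0 at a median of 0.11, and 0 passed. Ccnd2, a D-type cyclin that INK4 proteins counter, read 81.9 (2L) and 190.1 (4R) in the controls, against 903 (2L) and 200.1 (4R) in STZ, and its relative Ccnd1 read 1201, 746, 2032 and 1007 in the same order. Both were highest in STZ 2L, and both passed without STZ 4R (limma, adjusted p = 1.2e-13 and 0.000183). Cdk1, the mitotic kinase, was low, at 5.69 (2L) and 12.1 (4R) in the controls, against 29.5 (2L) and 16.5 (4R) in STZ (1.31 ± 0.69). Its STZ libraries were both above both controls. This order held for 5 of the 15 genes (33.3%), against 14.3% of all tested genes. Ccng2, the relative of Ccng1, stood at 0.20 ± 0.19. The Rb and E2F genes had 15 tested, 8 above 0, a median of 0.01 and 0 past the threshold, with Lin37 at -0.40 ± 0.24, E2f5 at 0.44 ± 0.28, Lin52 at -0.21 ± 0.18 and Lin9 at -0.43 ± 0.36. Lin37, Lin52 and Lin9 belong to the complex that holds cell cycle genes silent in resting cells, and E2f5 is an E2F repressor.

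Of 17 proliferation genes 11 passed the filter, 5 of these were above 0, the median was -0.03 and 0 passed the test. Both STZ libraries were above both controls for 5 (45.5%) and below both for 1 (9.09%). Over all tested genes these shares were 14.3% and 14.3%. In the other lists the share above both controls ran from 0% (Polycomb and Ink4a/Arf regulators, senescence marks) to 41.7% (Cip/Kip regulators). STZ 2L exceeded each other library by 1.5 times for 3 of the 11 proliferation genes (27.3%), against 6.57% of all tested genes. Foxm1, a transcription factor of mitotic genes, read 11.4 and 12.1 in the controls, 61.2 in STZ 2L and 24.0 in STZ 4R (1.63 ± 0.62). Mcm2, of the replicative helicase, read 575 and 544 in the controls and 697 and 708 in STZ 2L and 4R, at 0.33 ± 0.18, and both STZ libraries exceeded both controls. The mitotic genes Cdc20 and Plk1 stood at 0.92 ± 0.57 and 0.60 ± 0.50.

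Polycomb and other regulators of the Ink4a/Arf locus had 12 tested genes, 5 above 0, a median of -0.01 and 0 past the threshold. Cbx7, a Polycomb protein that represses Cdkn2a, read 3656 and 3236 in the controls and 3075 and 2895 in STZ 2L and 4R, at -0.21 ± 0.15. Cbx8, another Polycomb protein, and Tbx2, a repressor of the locus, stood at -0.12 ± 0.20 and -0.19 ± 0.21, and Id1, an inhibitor of helix-loop-helix factors, was high in STZ 2L alone (469.5 normalized counts against 177 to 198). The Cip/Kip regulators had 12 tested genes, 9 above 0, a median of 0.13 and 0 past the threshold. Klf4, a factor that induces Cdkn1a and is abundant in corneal epithelium, read 100.1 and 87.5 in the controls, 128 in STZ 2L and 246 in STZ 4R (0.91 ± 0.38). Sp1, which binds the GC box found before the downstream Cdkn1a start, read 1183 and 1149.7 in the controls and 1435 and 1536 in STZ 2L and 4R (0.35 ± 0.16). Tgfb1, the growth factor that raises Cdkn2b, was highest in STZ 2L like Cdkn2b, at 226 normalized counts against 48.3 to 110.3. Foxo4, a factor that induces Cdkn1b, stood at -0.20 ± 0.18.

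Senescence marks outside the cell cycle had 5 of 8 genes tested, 3 above 0, a median of 0.09 and 0 past the threshold. Lmnb1, the nuclear lamin that senescent cells lose, read 756 and 1064 in the controls and 841 and 1217 in STZ 2L and 4R (0.17 ± 0.25), so the groups overlapped. Hmgb1 and Hmgb2, chromatin proteins also lost in senescence, stood at -0.05 ± 0.17 and 0.09 ± 0.19. The secreted factor Il6 had a value of 0 in every library, and Cxcl1 and Mmp3 stayed under the filter.

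**Figure D4:**
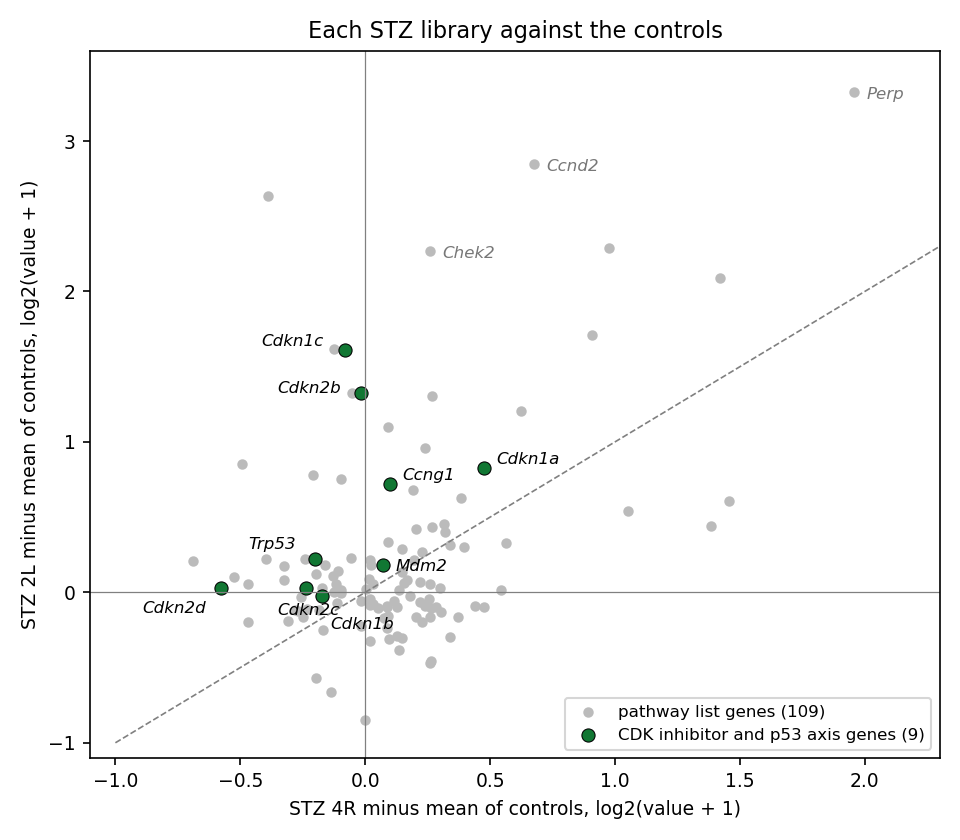
Each STZ library against the mean of the controls on the log2(value + 1) scale, STZ 4R on the horizontal and STZ 2L on the vertical axis, for the 9 tested genes (green) and 109 genes of the 8 pathway lists (grey); the dashed line marks equal values. Cdkn1c (1.61 in STZ 2L, -0.082 in STZ 4R) and Cdkn2b (1.32, -0.017) lie near the vertical axis, and Cdkn1a (0.82, 0.47) has both values above 0.

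Without STZ 4R, 8 of the pathway genes passed in limma, all higher, where 3.09% of all genes tested in that fit passed higher and 0.225% lower. They were Perp, Ccnd1, Ccnd2, Chek2, Id1, Tgfb1 and, named after their values were seen, the p53 targets Bax and Fas. Bax, which opens mitochondria in apoptosis, read 1195 (2L) and 968 (4R) in the controls, against 1943 (2L) and 764 (4R) in STZ. Fas, the death receptor, read 12.5, 19.1, 101 and 11.6 in the same order. Both were high in STZ 2L and lowest in STZ 4R. Without STZ 2L, where 0.35% of all genes passed higher, Perp was the 1 pathway gene that passed, and Bax and Fas stood at -0.49 and -0.39.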

How the data were processed

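Retina mRNA was sequenced in 2 control and 2 STZ libraries. Per the labels' protocols, Ion Torrent whole transcriptome libraries were analysed in Torrent Suite 5.4.0, with STAR alignment to mm10, Bowtie2 for unmapped reads, and gene counting with HTSeq and Picard. The authors deposited a signal (gene read counts over a library's size factor), with its mean, and, per the file headers, a log2 fold change, a test score and p-values. Each column's values were multiples of the value of 1 read (100% to a tolerance of 0.01 reads), which gave the reads. Tests on these reads are alternatives only. Columns tagged 2L matched a label; those tagged 4R named only their group, since the labels give 4L. Header times differ from those in the labels.

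The filter, a value of 10 or more in 2 or more libraries, kept 18127 genes. Their log2(value + 1) entered limma 3.58.1 (R 4.3.3; trend option; treatment alone in the model; two-sided; Benjamini-Hochberg, 0.05). The scale understates folds of low genes. For a single gene, an exact permutation of 2 against 2 libraries cannot go below p = 0.333. The limma step was also run on simulated reads, as a check of the code only. No simulated library stood apart as STZ 2L does, so the check does not measure power in these data. Members, lists and tests were chosen with earlier results of these data known. All 10 members were named, with the 4 genes of smallest p per list, except 1 gene that is not reported here. Reads of the controls differed with a chi-square of 30.9 per degree of freedom over genes, and those of the STZ libraries with 275.5. The 2 libraries of a group were thus not copies of each other, and pairs across the groups were not compared in this way. The chi-square is over all genes and sets no counting error for a single member.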

Additional observations from a re-analysis of the deposited data

How the results depend on the processing

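With all 4 libraries in the fit, 0 of the 9 tested members passed under TMM, quantile normalization, another filter or pseudocount, robust moderation, edgeR 4.0.16 or DESeq2 1.42.0. Leaving out 1 library gave 0 to 2 members, 0 to 8 pathway genes and 8 to 591 genes in all (75 without STZ 2L; limma). Over all genes the count was 13 with no filter, 3 with robust moderation and 52 with DESeq2 on recovered reads, and 1 pathway gene, Perp, passed with no filter and with DESeq2. The members' median log2 fold change ran from -0.082 to 0.24 over the omissions. Signs turned for Cdkn1c (-0.082), Cdkn2b (-0.017) and Trp53 (-0.20) without STZ 2L, for Cdkn2c (0.027) and Cdkn2d (0.029) without STZ 4R, and for Trp53 without control 4R (-0.064) and with quantile normalization (-0.019). The cause was not tested beyond the values given for each library. A replicate block by the column tags 2L and 4R gave 0 members, 0 pathway genes and 0 genes in all. The labels tie the tags to no shared animal or day. Deviations of the 2L libraries correlated at 0.0989 over genes. This value cannot settle whether libraries of a tag share a day or batch, which was not tested. With 2 libraries a group, the intervals leave room for folds such as 0.963 to 2.55 for Cdkn1a.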

Other observations

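Of the proliferation genes, 6 did not reach the filter. Of these, 4 were highest in STZ 2L (Mki67, Top2a, Aurkb and Birc5), named after their values were seen. How often genes under the filter were highest in STZ 2L was not counted, so this number has no background beside it. Bub1 and Rrm2 were highest in STZ 4R, Rrm2 by little (7.44 against 7.39 in STZ 2L). Mki67, the proliferation antigen, had 2.27 (2L) and 3.02 (4R) normalized counts in the controls, against 30.6 (2L) and 7.44 (4R) in STZ. Top2a, the topoisomerase of dividing cells, had 1.14, 3.02, 21.1 and 5.79 in the same order, and the mitotic kinase Aurkb 4.55, 4.02, 27.4 and 3.31. Birc5, a mitotic gene that encodes survivin, had 5.69, 2.01, 13.7 and 5.79. STZ 4R thus also lay above both controls for Mki67, Top2a and, by little, Birc5, and below both for Aurkb. The inhibitors Cdkn1c and Cdkn2b were highest in STZ 2L too. Lens markers summed to 1113300 normalized counts there, and their part in these values was not tested.

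In the authors' deposited table, the smallest p among the 10 genes was 0.068, for Ccng1, followed by 0.0775 for Cdkn1a, and the adjusted p was 1.00 for the 9 genes that had one. The authors' deposited table gave no adjusted p for Cdkn2a.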
